A study of Mus musculus with 6 samples.

Results

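The Notch genes examined here were the receptors *Notch1*, *Notch2* and *Notch3*, the ligands *Dll1*, *Dll3*, *Jag1* and *Jag2*, and the Hes genes *Hes1*, *Hes5* and *Hes6*. These 10 genes were taken by mouse symbol from the 43346 Ensembl genes of the deposited tables, with earlier results of these data known. The libraries came from mouse retinal ganglion cells (RGCs), the neurons that carry visual signals from the eye to the brain, purified with antibody to CD90.1 and cultured with BDNF, CNTF and forskolin. Cells received an adeno-associated virus (AAV) carrying EGFP (control), Sox11-IRES-EGFP (Sox11) or Sox11K91A-IRES-EGFP (Sox11 K91A), in which the lysine at residue 91, a SUMOylation site of the transcription factor, is replaced by alanine. Each of the 3 groups had 2 libraries, 6 in all, of RNA taken 72 h after plating, and AAV was added 4 h after plating at about 100000 vector genomes per cell in every group. The age of the donor animals was given as embryonic day 18 in one protocol and as postnatal day 2 in another. Sequencing was described as done on 3 RNA samples in duplicate, so the p-values measure the spread between these libraries, which may be technical.

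In Notch signaling, a Delta-like or Jagged ligand on one cell binds a Notch receptor on its neighbor, the receptor is cut by an ADAM protease and then by gamma-secretase, and the freed intracellular domain joins RBPJ and a Mastermind protein on DNA. *Hes1* and *Hes5* are classic targets of this complex and encode repressors of neurogenic genes. In the developing retina the pathway keeps progenitors dividing and favors glia, while newborn neurons present ligand to the cells around them.

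All 10 genes passed the filter on low counts, by which 15747 genes were tested. With Sox11, *Notch3*, *Dll1*, *Jag1* and *Hes6* rose and *Jag2* fell (limma-voom, FDR under 0.05 and fold change above 1.2). With Sox11 K91A, *Notch3*, *Dll1* and *Hes6* rose and *Jag2* fell. Of all tested genes, 20.1% were called with Sox11, 9.96% higher and 10.2% lower, and 10.6% with Sox11 K91A, 5.81% higher and 4.81% lower. The 5 of 10 called genes with Sox11 and the 4 of 10 with Sox11 K91A stood against these shares. The 2 control libraries served in both comparisons. The median log2 fold change of the 10 genes was 0.57 with Sox11 and 0.32 with Sox11 K91A, where the medians of all tested genes were 0.009 and 0.017, and their median absolute log2 fold changes of 0.85 and 0.82 lay beside 0.46 and 0.39. The libraries of control and Sox11 did not overlap for 8 of the 10 genes, and those of control and Sox11 K91A for 8 of 10, shares that were 61.5% and 61.9% among all tested genes.

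Library depth was 27521981 to 37061718 expected counts. *Sox11* itself, as counts scaled to library size with TMM factors (CPM), was 234.2 and 331.7 in the control libraries, 9177.8 and 14591.2 with Sox11, and 11971.2 and 7025.6 with Sox11 K91A, which is 41.6-fold and 33.0-fold above control. The mutated base was not visible in these gene totals, so they do not tell both Sox11 viruses apart. Principal component 2 (18.2% of the variance) set control replicate 2 and Sox11 replicate 2 apart from the remaining 4 libraries, and values without them are given for the genes that rest on them. Calls were few or lost when some libraries were left out. Without Sox11 replicate 2, limma-voom called 0 of 16206 tested genes with Sox11, 3347 of them under an unadjusted p of 0.05. Without control replicate 2 it called 0 of 16205 with Sox11 K91A, 4753 under that p, and without Sox11 K91A replicate 1 it called 18 genes higher and 1 lower.

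**Figure D1:**
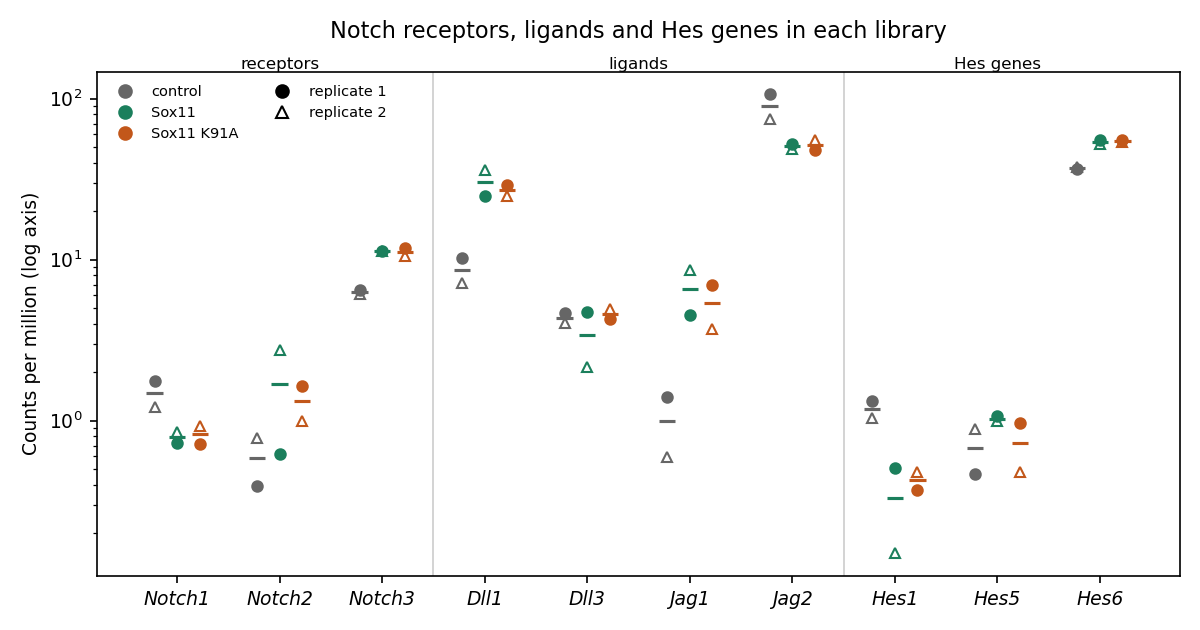
The vertical log axis gives CPM (counts scaled to library size with TMM factors) of the 10 genes along the horizontal axis, with circles for replicate 1, triangles for replicate 2, colors for control, Sox11 and Sox11 K91A, and a bar at each group mean. *Dll1*, *Jag1*, *Notch3* and *Hes6* lay higher in the 4 libraries with a Sox11 virus than in both control libraries, and *Jag2*, *Notch1* and *Hes1* lay lower.

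The DNA upstream of the genes whose levels the results turn on is shown to place RBPJ-type and E-box letters beside the expression values. RefSeq promoter windows of 250 bases before and 50 bases after the start were at hand for 9 of the 10 genes, in 11 windows on GRCm38.p6. The gene without a window was *Hes1*, so its upstream DNA was not searched for any of these letters. Capitals mark TGGGAA, the core of the RBPJ site, on either strand (TTCCCA when on the other strand) and CANNTG, the E-box read by basic helix-loop-helix factors, in the 250 bases before the start. *Hes5* is the Notch target, chr4:154960673-154960922 on the plus strand. *Hes6* is the Hes gene that rose, chr1:91414039-91414288 on the minus strand. *Dll1* is shown by the first of its windows, chr17:15375824-15376073, and *Jag1* by chr2:137116521-137116770, both on the minus strand.

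Hes5: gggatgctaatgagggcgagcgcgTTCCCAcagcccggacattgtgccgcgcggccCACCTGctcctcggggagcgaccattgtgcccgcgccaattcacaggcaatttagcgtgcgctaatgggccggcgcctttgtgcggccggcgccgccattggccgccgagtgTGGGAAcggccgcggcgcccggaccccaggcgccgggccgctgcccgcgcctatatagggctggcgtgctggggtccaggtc

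Hes6: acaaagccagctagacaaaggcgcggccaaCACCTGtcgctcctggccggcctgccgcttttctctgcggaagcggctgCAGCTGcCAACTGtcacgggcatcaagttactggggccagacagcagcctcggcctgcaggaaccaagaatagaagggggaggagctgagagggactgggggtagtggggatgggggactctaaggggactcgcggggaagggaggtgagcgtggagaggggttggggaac

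Dll1: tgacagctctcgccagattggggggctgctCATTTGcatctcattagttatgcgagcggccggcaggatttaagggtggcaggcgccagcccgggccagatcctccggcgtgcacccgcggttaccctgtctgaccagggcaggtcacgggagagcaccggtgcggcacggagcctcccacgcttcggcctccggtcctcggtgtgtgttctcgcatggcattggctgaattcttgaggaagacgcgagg

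Jag1: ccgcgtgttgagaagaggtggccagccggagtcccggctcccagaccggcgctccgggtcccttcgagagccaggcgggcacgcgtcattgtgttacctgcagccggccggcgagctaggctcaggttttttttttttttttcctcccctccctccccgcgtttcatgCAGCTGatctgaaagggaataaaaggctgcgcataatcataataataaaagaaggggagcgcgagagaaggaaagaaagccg

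The RBPJ letters occurred in 1 of the 11 windows, that of *Hes5*, which held them at bases -226 to -221 and -82 to -77 from its start. Of 32851 RefSeq windows of the same length, 25.6% held them on either strand. Letters of the SOX core, AACAAT or AACAAAG on either strand, occurred in 0 of the 11 windows and in 15.7% of all windows. The E-box was in 7 of 11 windows and in 72.3% of all, and the N-box CACNAG, which Hes repressors bind, was in 5 of 11 and in 42.5% of all. CCAAT was in 4 of 11 windows and 37.4% of all, and TATAAA in 1 of 11 and 13.6% of all. Such matches describe letters in short windows and are neither binding sites nor causes. The genes with a called rise, *Dll1*, *Jag1*, *Notch3* and *Hes6*, had no RBPJ letters in these windows.

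Among the ligands, *Dll1* and *Jag1* were higher and *Jag2* was lower with either Sox11 virus, and *Dll3* showed no called difference. *Dll1* (ENSMUSG00000014773, chromosome 17, 15367354 to 15376872, minus strand, 11 exons, coordinates here and below from GENCODE M21 on GRCm38) encodes the Delta-like ligand that activates Notch on neighboring cells and marks newborn neurons. Its CPM was 10.2 and 7.11 in control, 25.0 and 35.9 with Sox11, and 29.0 and 24.8 with Sox11 K91A. The 4 libraries with a Sox11 virus lay above both control libraries, and the Sox11 and Sox11 K91A ranges overlapped. *Dll1* rose 3.61-fold with Sox11 (log2 fold change 1.85, SE 0.28, 95% CI 1.19 to 2.51, adjusted p = 0.0128) and 3.22-fold with Sox11 K91A (1.69, SE 0.28, 95% CI 1.02 to 2.35, adjusted p = 0.0217). Its call with Sox11 was kept in 22 of 23 alternative analyses and was lost without Sox11 replicate 2 (log2 fold change 1.58, adjusted p = 0.0765). With Sox11 K91A it was kept in 18 of 23. Among the fits that lost it were those without control replicate 2 (1.40), Sox11 K91A replicate 1 (1.57) or Sox11 K91A replicate 2 (1.79), and other alternatives lost it too. A long non-coding gene on the opposite strand, *A930024N18Rik*, covers 45.4% of a *Dll1* transcript, and whether counting used strand is not stated. Its expected counts were 346.6 and 509.3 in control, 261.5 and 368.5 with Sox11 and 303.2 and 303.9 with Sox11 K91A, and the CPM of both genes summed was still 1.9-fold and 1.72-fold higher than control.

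*Jag1* (ENSMUSG00000027276, chromosome 2, 137081456 to 137116644, minus strand, 26 exons) encodes a Jagged ligand with roles in the lens, ear and vessels. It had 39 and 23 counts in control, 125 and 284 with Sox11, and 225 and 108 with Sox11 K91A. As CPM these were 1.40 and 0.597, 4.55 and 8.57, and 6.98 and 3.70. Both control libraries lay below the 4 others, and *Jag1* had the largest fold change of the 10 genes from one of the lowest levels. It rose 7.22-fold with Sox11 (log2 fold change 2.85, SE 0.65, 95% CI 1.31 to 4.40, adjusted p = 0.0287). With Sox11 K91A the log2 difference was 2.54 (SE 0.66, 95% CI 0.98 to 4.11), which missed the threshold (adjusted p = 0.0546) and passed it in 8 of 23 alternatives, among them the edgeR quasi-likelihood test (adjusted p = 0.0477), DESeq2 (0.000689) and the fits without Sox11 replicate 1 (0.0439) or Sox11 replicate 2 (0.0467). The call with Sox11 was lost without control replicate 1 (3.40, adjusted p = 0.0629), control replicate 2 (2.18, adjusted p = 0.125) or Sox11 replicate 2 (2.38, adjusted p = 0.137). Without both libraries that stood apart, the log2 difference with Sox11 was 1.70 (adjusted p = 0.142), in a fit with 1 residual degree of freedom. With Sox11 K91A, leaving out 1 library gave 1.87 (without control replicate 2) to 3.09 (without control replicate 1). On the log2(TPM + 1) scale, which understates low genes, the differences were 1.33 (adjusted p = 0.043) and 1.01 (adjusted p = 0.106). In the 4 libraries with a Sox11 virus, 2 of the 10 genes, *Dll1* and *Jag1*, had the same order as *Sox11* CPM. That order was shared by 12.5% of all tested genes. The reverse order was that of 1 of the 10, *Dll3*, and of 13.9% of all tested genes.

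*Jag2* (ENSMUSG00000002799, chromosome 12, 112907819 to 112929776, minus strand, 26 exons) encodes the second Jagged ligand, and it had the most counts of the 10 genes in control. CPM was 106 and 74.7 in control, 52.5 and 48.7 with Sox11, and 48.2 and 54.9 with Sox11 K91A. Both control libraries lay above all 4 others, although they differed from each other by more than the 4 did. *Jag2* fell 1.76-fold with Sox11 (log2 fold change -0.82, SE 0.19, 95% CI -1.28 to -0.36, adjusted p = 0.0313) and 1.73-fold with Sox11 K91A (-0.79, SE 0.19, 95% CI -1.25 to -0.34, adjusted p = 0.0472). The call with Sox11 was lost without either Sox11 library (-0.89 without replicate 1 and -0.76 without replicate 2, adjusted p = 0.0599 and 0.184) or either Sox11 K91A library (-0.82 without replicate 1 and -0.83 without replicate 2, adjusted p = 0.0587 and 0.0573). That with Sox11 K91A was lost when any 1 of the 6 libraries was left out, with log2 fold changes of -1.05 to -0.54 and adjusted p of 0.0533 to 0.387, the smallest without control replicate 1 and the largest without control replicate 2.

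*Dll3* (ENSMUSG00000003436, chromosome 7, 28293553 to 28302238, minus strand, 9 exons) encodes a divergent Delta-like protein that inhibits Notch within the cell that makes it and does not activate it on neighbors. CPM was 4.65 and 4.02 in control, 4.70 and 2.14 with Sox11, and 4.25 and 4.90 with Sox11 K91A. The 3 groups overlapped, with the lowest value in Sox11 replicate 2. The log2 difference was -0.47 with Sox11 (adjusted p = 0.423) and 0.09 with Sox11 K91A (adjusted p = 0.904). Without Sox11 replicate 2 the former was 0.14 (adjusted p = 0.85).

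The ligand mixture differed accordingly. Levels of different genes were compared as CPM per kb of median effective transcript length. *Jag2* made up 80.8% and 80.1% of the 4 ligands' summed level in the control libraries, 50.4% and 41.6% with Sox11, and 44.7% and 51.8% with Sox11 K91A. *Dll1* made up 12.5% and 12.3%, then 38.8% and 49.5%, then 43.6% and 37.8%. The level of *Jag2* was 6.45 and 6.51 times that of *Dll1* in control, 1.30 and 0.839 times with Sox11, and 1.03 and 1.37 times with Sox11 K91A, so that *Dll1* exceeded *Jag2* in Sox11 replicate 2 alone. *Jag1* stayed below 6% of the ligand total in every library, from 0.515% and 0.855% in control to between 2.81% and 5.89% with either virus. *Dll3* contributed 2.99% to 7.56%. These shares are descriptions of the values tested above and were not tested again.

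**Figure D2:**
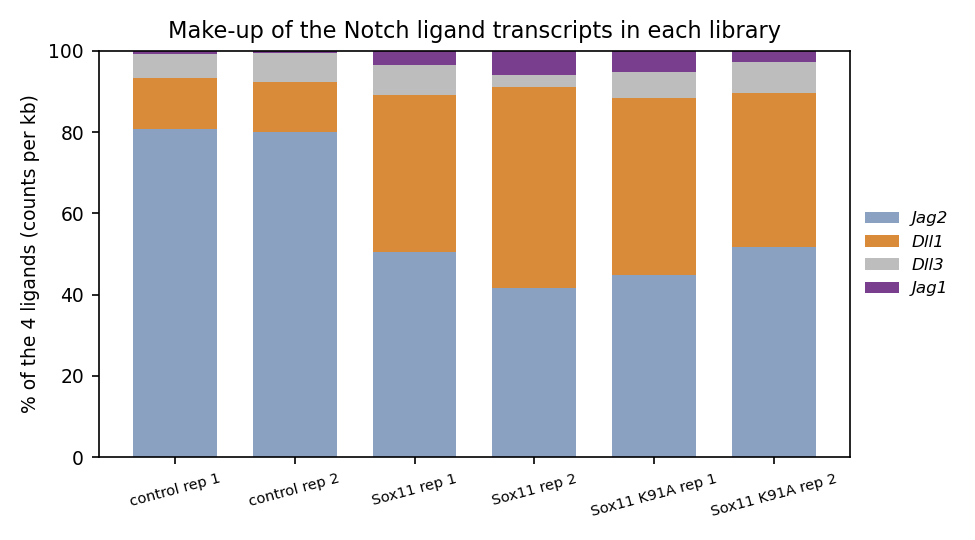
Stacked bars give the percent of the 4 ligands' summed level (CPM per kb of median effective length) taken by *Dll1*, *Dll3*, *Jag1* and *Jag2* in each of the 6 libraries. *Jag2* held 80.1% and 80.8% in the control libraries and 41.6% to 51.8% in the 4 libraries with a Sox11 virus, where *Dll1* held 37.8% to 49.5%.

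Among the receptors, *Notch3* rose with either virus, and *Notch1* and *Notch2* showed no called difference. *Notch3* (ENSMUSG00000038146, chromosome 17, 32120820 to 32166852, minus strand, 33 exons) encodes a receptor best known from vascular smooth muscle. CPM was 6.51 and 6.07 in control, 11.3 in both libraries with Sox11, and 11.8 and 10.5 with Sox11 K91A. Libraries of a group lay close together, and both control values were below the 4 others. *Notch3* rose 1.80-fold with Sox11 (log2 fold change 0.85, SE 0.21, 95% CI 0.36 to 1.33, adjusted p = 0.0335) and 1.77-fold with Sox11 K91A (0.83, SE 0.21, 95% CI 0.34 to 1.31, adjusted p = 0.0498). With Sox11 the call was lost without control replicate 2, Sox11 replicate 1, Sox11 replicate 2, Sox11 K91A replicate 1 or Sox11 K91A replicate 2, where log2 fold changes were 0.79, 0.83, 0.85, 0.85 and 0.84 and adjusted p 0.0809, 0.0737, 0.156, 0.0937 and 0.0976. With Sox11 K91A, any 1 library left out ended the call, and log2 fold changes were 0.74 to 0.90 with adjusted p of 0.0563 to 0.449. It was also lost there with the edgeR quasi-likelihood test (adjusted p = 0.0522). An antisense gene, *Gm17276*, overlaps *Notch3* and had expected counts of 69.98 and 31.75 in control, 15.56 and 4.37 with Sox11 and 19.11 and 12.57 with Sox11 K91A. The summed CPM of the pair was 1.46-fold above control with either virus.

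*Notch1* (ENSMUSG00000026923, chromosome 2, 26457903 to 26516663, minus strand, 34 exons), the main receptor of retinal progenitors, had 49 and 47 counts in control, 20 and 28 with Sox11 and 23 and 27 with Sox11 K91A. As CPM it was 1.75 and 1.22, then 0.728 and 0.845, then 0.714 and 0.926. The control libraries were the 2 highest of the 6, but the log2 differences of -0.85 with Sox11 (95% CI -1.90 to 0.21, adjusted p = 0.209) and -0.81 with Sox11 K91A (adjusted p = 0.263) did not pass the test. The authors' effective length of *Notch1* was 1205 bases in Sox11 K91A replicate 2 and had a median of 9106 over the libraries. On the TPM scale, which divides by that length, the difference with Sox11 K91A took the other sign. A gene on the opposite strand, *0610009E02Rik*, overlaps *Notch1*. Its expected counts were 3.0 and 27.39 in control, 6.0 and 30.43 with Sox11, and 24.85 and 6.95 with Sox11 K91A. The summed CPM of the pair was 1.86 and 1.93 in control and 1.75 in Sox11 replicate 2. Its group means were 0.712 of control with Sox11 and 0.702 with Sox11 K91A. *Notch2* (ENSMUSG00000027878, chromosome 3, 98013527 to 98150361, plus strand, 34 exons), a receptor of glia and other cells, had CPM of 0.394 and 0.778 in control, 0.619 and 2.75 with Sox11, and 1.64 and 0.995 with Sox11 K91A. Its highest value, in Sox11 replicate 2, was over 4 times that of the other Sox11 library, and the log2 differences of 1.24 (SE 0.85, adjusted p = 0.327) and 1.15 (adjusted p = 0.412) were not called. With Sox11 the value rested on replicate 2 of that group. It was 0.11 (adjusted p = 0.952) without Sox11 replicate 2, 0.63 (adjusted p = 0.636) without both libraries that stood apart and 2.20 (adjusted p = 0.048) without Sox11 replicate 1, the 1 of 23 alternatives with a call.

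Of the Hes genes, *Hes6* rose with either virus, *Hes1* was lower without passing the threshold, and *Hes5* had few counts in every library. *Hes6* (ENSMUSG00000067071, chromosome 1, 91411483 to 91414038, minus strand, 4 exons) encodes a family member that is active in differentiating neurons and opposes *Hes1*, and it is not a typical Notch target. CPM was 36.7 and 37.5 in control, 55.5 and 52.1 with Sox11, and 55.3 and 54.1 with Sox11 K91A. The 2 control libraries differed by less than 1 CPM and lay below the 4 others, which overlapped. *Hes6* rose 1.45-fold with Sox11 (log2 fold change 0.53, SE 0.13, 95% CI 0.22 to 0.84, adjusted p = 0.0336) and 1.47-fold with Sox11 K91A (0.56, SE 0.13, 95% CI 0.25 to 0.87, adjusted p = 0.0422). With Sox11 the call was kept without control replicate 1 and lost without control replicate 2, Sox11 replicate 1, Sox11 replicate 2, Sox11 K91A replicate 1 or Sox11 K91A replicate 2, at log2 fold changes of 0.55, 0.47, 0.59, 0.54 and 0.53 and adjusted p of 0.055, 0.106, 0.148, 0.105 and 0.11. With Sox11 K91A it was likewise kept without control replicate 1 and lost without any of the same 5 libraries, at 0.55 to 0.58 and adjusted p of 0.058 to 0.402.

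*Hes1* (ENSMUSG00000022528, chromosome 16, 30064384 to 30067796, plus strand, 4 exons), the repressor that holds progenitors undifferentiated, had 37 and 40 counts in control, 14 and 5 with Sox11, and 12 and 14 with Sox11 K91A. CPM was 1.32 and 1.04, then 0.510 and 0.151, then 0.372 and 0.480. Both control libraries exceeded the 4 others. By limma-voom the log2 difference with Sox11 was -2.03 (SE 0.65, 95% CI -3.57 to -0.49, adjusted p = 0.067), and with Sox11 K91A it was -1.42 (SE 0.60, 95% CI -2.83 to -0.01, adjusted p = 0.161). The Sox11 value was -1.14 (adjusted p = 0.363) without Sox11 replicate 2, -2.84 (adjusted p = 0.0671) without Sox11 replicate 1 and -1.34 (adjusted p = 0.188) without both libraries that stood apart. On the log2(TPM + 1) scale it was -0.84 (adjusted p = 0.0971). It passed the threshold in 1 of 22 alternatives, a block for the 2 libraries that stood apart, which was added after seeing the data (-1.90, adjusted p = 0.0433). *Hes5* (ENSMUSG00000048001, chromosome 4, 154960923 to 154962371, plus strand, 3 exons), the Notch target of the printed RBPJ letters, had 13 and 34 counts in control, 29 and 33 with Sox11, and 31 and 14 with Sox11 K91A. CPM was 0.465 and 0.882 in control, 1.06 and 0.995 with Sox11, and 0.962 and 0.480 with Sox11 K91A. Both Sox11 libraries lay above control, and those of Sox11 K91A overlapped it. Its log2 differences were 0.61 (SE 0.55, adjusted p = 0.451) with Sox11 and 0.05 (adjusted p = 0.963) with Sox11 K91A, and at this depth no difference was detectable.

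**Figure D3:**
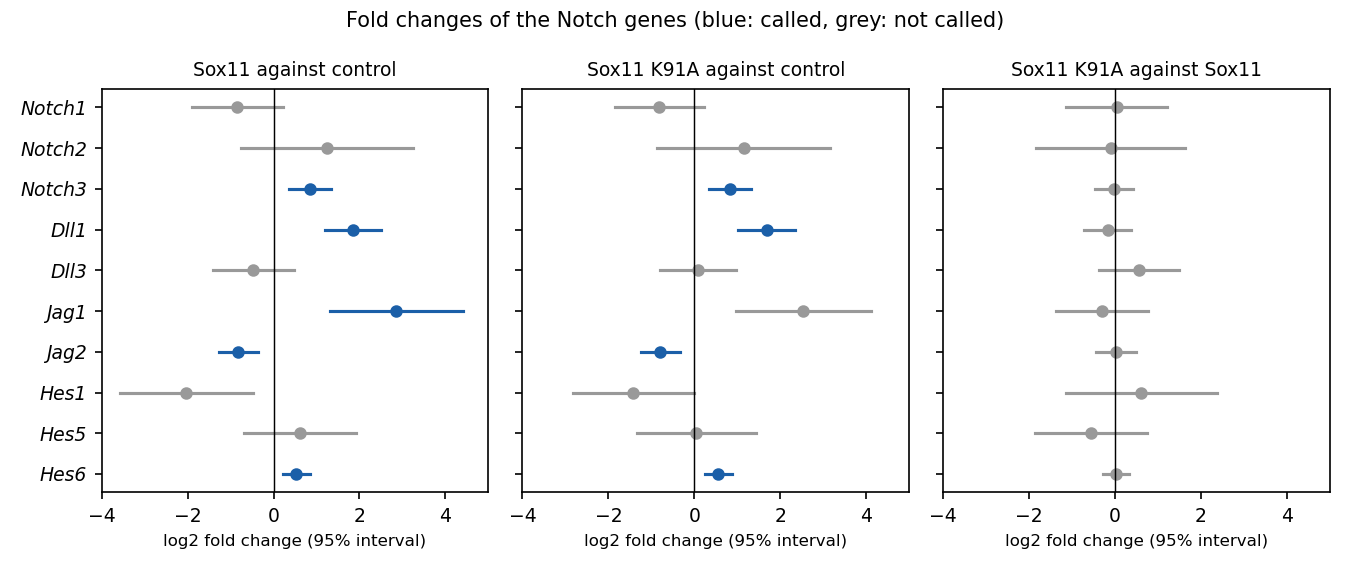
The 3 panels give the log2 fold change of each of the 10 genes for each virus against control and, on the right, for Sox11 K91A against Sox11, with 95% confidence intervals as lines and called genes in blue. *Dll1* lay at 1.85 and 1.69 with intervals above 0, and the intervals of Sox11 K91A against Sox11 include 0 for the 10 genes.

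Per kb, the 10 genes spanned a wide range of levels. In control the order from the top was *Hes6* (32.6 ± 0.476 CPM per kb, SD, n = 2), *Jag2* (23.7 ± 5.81), *Dll1* (3.65 ± 0.914), *Dll3* (1.85 ± 0.19), *Hes1* (1.12 ± 0.192), *Notch3* (0.805 ± 0.04), *Hes5* (0.649 ± 0.284), *Jag1* (0.21 ± 0.119), *Notch1* (0.163 ± 0.0415) and *Notch2* (0.057 ± 0.0265). The ranges of *Notch3* and *Hes5* overlapped, as did those of *Jag1* and *Notch1*. With Sox11, *Hes6* was again first (47.2 ± 2.11), and *Jag2* (13.2 ± 0.714) and *Dll1* (12.9 ± 3.26) overlapped in the next places. *Jag1* reached 1.38 ± 0.598 with Sox11 and 1.13 ± 0.488 with Sox11 K91A, close to *Notch3* at 1.44 ± 0.0028 and 1.42 ± 0.118. *Hes1* stood in the eighth place in both groups rather than the fifth, at 0.313 ± 0.241 with Sox11 and 0.404 ± 0.0723 with Sox11 K91A. *Notch2* and *Notch1* had the lowest 2 means with either virus, 0.164 ± 0.146 and 0.0863 ± 0.00906 with Sox11 and 0.128 ± 0.0447 and 0.09 ± 0.0165 with Sox11 K91A. Their ranges overlapped in both groups, and with Sox11 that of *Hes1* overlapped *Notch2*. Neighbors among *Notch3*, *Jag1* and *Hes5* also overlapped in both groups, and *Dll3* overlapped *Notch3* with Sox11.

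Setting Sox11 K91A directly against Sox11 asked whether the SUMOylation site mattered for these genes. Limma-voom called 0 of the 10 genes and 0% of all 15747 tested genes, with 108 genes and 0 of the 10 under an unadjusted p of 0.05. The edgeR quasi-likelihood test called 0 genes and DESeq2 called 2, neither of them among the 10. *Hes5* was the only one of the 10 without overlap between both groups, which 26.6% of all tested genes also showed. The log2 differences (Sox11 K91A minus Sox11) were -0.17 for *Dll1* (95% CI -0.71 to 0.38), -0.31 for *Jag1* (-1.38 to 0.76), 0.02 for *Jag2* (-0.44 to 0.49), -0.02 for *Notch3* (-0.47 to 0.43) and 0.03 for *Hes6* (-0.28 to 0.33). Intervals were narrowest for *Hes6* and widest for genes of few counts, with -1.14 to 2.37 for *Hes1* and -1.83 to 1.64 for *Notch2*, and such widths leave room for differences in either direction. For *Notch1*, *Dll3* and *Hes5* the differences were 0.04 (-1.13 to 1.2), 0.55 (-0.38 to 1.49) and -0.56 (-1.86 to 0.75). The call of *Jag1* with Sox11 and its absence with Sox11 K91A is therefore not a tested difference between the viruses.

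Around these 10 genes, a list of 54 other pathway genes had 51 that could be tested. With Sox11, 6 of the 51 rose and 5 fell, and with Sox11 K91A 4 rose and 2 fell, beside the 20.1% and 10.6% of all tested genes. The median log2 fold change over the 51 was 0.12 and 0.09. In the nuclear complex, 3 of 10 genes rose with Sox11 and 2 with Sox11 K91A. *Rbpj*, the DNA-binding partner of cleaved Notch, had CPM of 35.1 and 32.2 in control, 93.9 and 133 with Sox11 and 103 and 84.3 with Sox11 K91A. It rose by 1.73 on the log2 scale with Sox11 (adjusted p = 0.0112) and by 1.47 with Sox11 K91A (adjusted p = 0.0183), with both control libraries below the others. The coactivator gene *Maml2* rose by 1.63 (adjusted p = 0.0269) and 1.64 (adjusted p = 0.0370), and *Maml1* rose by 0.89 with Sox11 (adjusted p = 0.0341). With Sox11 K91A the limma-voom difference of *Maml1* was 0.7 and not called (adjusted p = 0.0855). Without Sox11 replicate 2, the call was lost for *Rbpj* (1.49, adjusted p = 0.0654) and *Maml2* (1.32, adjusted p = 0.145), and without both libraries that stood apart *Maml1* (0.56, adjusted p = 0.15) and *Maml2* (1.14, adjusted p = 0.113) lost theirs. *Maml1* and *Maml2* also lost the call with Sox11 without control replicate 2 (0.75 and 1.45, adjusted p = 0.104 and 0.0949), and *Maml1* without Sox11 K91A replicate 1 or 2 (0.89 and 0.88, adjusted p = 0.0675 and 0.0692). Without Sox11 K91A replicate 1, *Rbpj* lost its call with Sox11 K91A (1.33, adjusted p = 0.14), as it did without control replicate 2 (1.41, adjusted p = 0.0594).

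Of 9 genes for receptor cleavage, 2 rose and 1 fell with Sox11, and 1 rose with Sox11 K91A. *Adam10*, the protease of the first ligand-dependent cut, had CPM of 74.4 and 77.4 in control and 137 and 214 with Sox11, a rise of 1.17 on the log2 scale (adjusted p = 0.0186). *Aph1b*, a gamma-secretase subunit, rose by 1.03 with Sox11 (adjusted p = 0.0136) and by 0.78 with Sox11 K91A (adjusted p = 0.0334). The catalytic subunit gene *Psen2* went the other way, with CPM of 79.8 and 74.9 in control and 37.9 and 19.7 with Sox11, and fell by 1.52 on the log2 scale (adjusted p = 0.0218). With Sox11 K91A, *Adam10* (0.84, adjusted p = 0.0556) and *Psen2* (-1.13, adjusted p = 0.056) had the same direction by limma-voom and were not called. Of the 5 Groucho corepressors, which Hes proteins recruit, *Tle4* rose by 1.10 with Sox11 and 0.84 with Sox11 K91A. *Tle2* fell by 2.59 and 2.23 on the log2 scale, and *Tle5*, a short family member, fell by 0.95 with Sox11. With Sox11 K91A the limma-voom difference of *Tle5* was -0.74 and not called (adjusted p = 0.0718). *Dlk1*, a Delta-like protein that lacks the receptor-binding DSL domain, fell by 2.69 with Sox11 (adjusted p = 0.0236) and 2.08 with Sox11 K91A (adjusted p = 0.0477), from CPM of 18.9 and 12.5 in control to 4.11 and 1.39, and 2.33 and 5.52. *Neurl1a*, a ubiquitin ligase of ligand endocytosis, fell by 1.14 with Sox11 (adjusted p = 0.0271), a call lost without both libraries that stood apart (-0.87). With Sox11 K91A its limma-voom difference was -0.72 and not called (adjusted p = 0.0958). Without Sox11 replicate 2, limma-voom called 0 of the 51 genes with Sox11. Without control replicate 2, the calls of *Adam10* (1.2, adjusted p = 0.0524), *Psen2* (-1.57, 0.0565), *Neurl1a* (-1.21, 0.0586) and *Tle5* (-1.01, 0.0633) with Sox11 were lost, and 0 of the 51 were called with Sox11 K91A. Leaving out Sox11 replicate 1 brought *Adam10* (0.84, adjusted p = 0.0312), *Psen2* (-1.13, 0.0294) and *Tle5* (-0.74, 0.044) past the threshold with Sox11 K91A, and leaving out Sox11 replicate 2 did so too (0.033, 0.0323 and 0.0478). Leaving out Sox11 K91A replicate 1 gave 0 calls with Sox11 K91A and leaving out its replicate 2 gave 1, *Rbpj*. Without control replicate 1, *Tle5* was lost with Sox11 (-0.91, adjusted p = 0.0571), and *Dlk1* (-1.82, 0.0761), *Tle2* (-1.94, 0.0639), *Tle4* (0.77, 0.0745) and *Maml2* (1.79, 0.0577) with Sox11 K91A. The 9 genes for receptor turnover and inhibition and the 4 tested other Hes and Hey genes had 0 limma-voom calls with either virus.

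**Figure D4:**
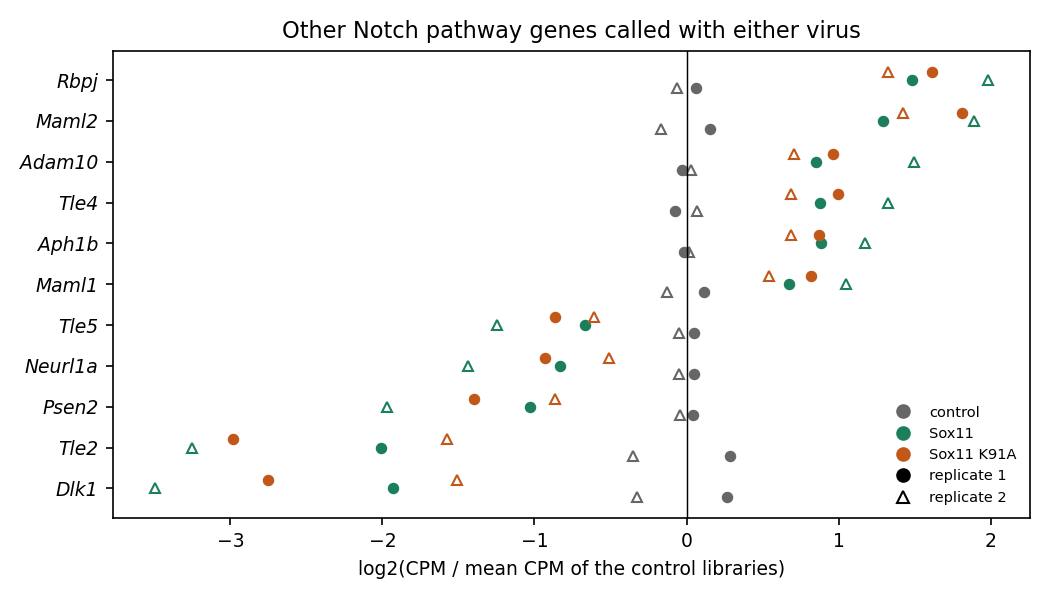
The horizontal axis gives log2 of CPM over the mean CPM of the control libraries for the 11 other pathway genes called with either virus, 1 gene per line, with circles for replicate 1, triangles for replicate 2 and colors for the 3 groups. For *Rbpj* the 4 libraries with a Sox11 virus (84.3 to 133 CPM) lie right of both control libraries, and for *Dlk1* they lie left of them (1.39 to 5.52 CPM).

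Proneural transcription factors, which Hes repressors act on and which activate *Dll1* in progenitors, were tested for 5 of 9 listed genes. Limma-voom called 0 of the 5 with either virus, with 2 and 3 under an unadjusted p of 0.05 with Sox11 and Sox11 K91A. *Neurog2* had 608 and 104 counts in control, 701 and 619 with Sox11 and 1041 and 695 with Sox11 K91A, so its control libraries differed by more than the other 4 did. Its log2 differences were 1.66 (adjusted p = 0.155) and 2.02 (adjusted p = 0.120), and both rested on the control libraries, at 21.8 and 2.7 CPM. Without control replicate 2 the differences were -0.01 (adjusted p = 0.978) and 0.36 (adjusted p = 0.446), and without control replicate 1 they were 3.00 (adjusted p = 0.021) and 3.37 (adjusted p = 0.0237). *Neurod1*, a later neurogenic factor, had CPM of 46.3 and 19.5 in control, 28.8 and 8.69 with Sox11 and 22.5 and 30.9 with Sox11 K91A, which overlapped (log2 differences -0.94 and -0.16, adjusted p = 0.292 and 0.882). Its relatives *Neurod2* and *Neurod4* had 22 and 20, and 11 and 19 counts in control and 0 to 6 and 0 to 5 in the 4 others, and neither was called (adjusted p = 0.117 for both with Sox11, 0.0946 and 0.0666 with Sox11 K91A). *Neurog1* and *Atoh1* had 0 counts in the 6 libraries.

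Cell type markers were set beside these values because Notch genes are high in glia and progenitors. In bulk samples, fewer cells of a type and less RNA per cell cannot be told apart. The 10 RGC markers were at or above 1 CPM in the 6 libraries, but their summed level was 9770 to 10600 CPM in control, 4350 to 6880 with Sox11 and 5580 to 7160 with Sox11 K91A. Most of that sum was *Nefl*, a neurofilament gene, at 7090 and 6340 CPM in control and 2190 to 4330 in the 4 others, and *Thy1* and *Slc17a6* were also lower in the 4 others. *Isl1* was 260 and 270 CPM in control and 268 to 289 in the others, and *Ebf3* 276 and 227 and then 297 to 353. Of 10 markers of Müller glia and retinal progenitors, 4 reached 1 CPM in the 6 libraries, and the summed level overlapped between control (712 to 765 CPM) and Sox11 (684 to 819) and was 786 to 839 with Sox11 K91A. Single genes of the list lay on either side of control. *Sox9* was 0.68 and 2.34 CPM in control and 0.155 to 0.573 in the 4 others, *Rlbp1* 1.15 and 3.74 and then 0.182 to 0.694, and *Nes* 27.8 and 44.9 and then 11.6 to 15.5, alongside the lower values of *Hes1* and *Notch1*. *Glul* was 105 and 97.2 CPM in control and 267 to 310 in the others. *Dkk3* went the other way, at 498 and 371 CPM in control and 192 to 346 in the others. *Dkk3*, *Glul* and *Vim* (123 to 202 CPM) made up most of the summed level, which thus hides these opposite differences. Summed astrocyte markers were 22.8 to 56.1 CPM in control and 35.5 to 40.8 in the others, with *Gfap* at 0 in every library. Endothelial markers, of cells known for *Jag1* and *Dll1*, summed to 4.41 to 6.15 CPM in control, 7.48 to 10.4 with Sox11 and 10.4 to 12.9 with Sox11 K91A. Only 1 of the 8, *Kdr* (3.14 to 8.13 CPM), reached 1 CPM in the 6 libraries. *Cdh5*, *Cldn5* and *Emcn* were at 0 to 0.362 CPM and *Flt1* overlapped control, while *Pecam1*, *Tek* and *Esam* were higher in the 4 others. Pericyte markers, of cells known for *Notch3*, summed to 3.55 to 4.40, 3.42 to 3.86 and 2.43 to 3.07 CPM. Amacrine markers were 95.9 to 232 CPM in control, 37.5 to 112 with Sox11 and 96 to 103 with Sox11 K91A. The largest part was *Gad2*, at 140 and 71.5 CPM in control and 20.6 to 52.6 in the others, and *Slc6a9* was lower too. *Gad1* and *Slc32a1* were lowest in control replicate 2 (2.83 and 1.22 CPM) and Sox11 replicate 2 (2.23 and 2.59). *Tfap2a* and *Tfap2b* overlapped control, the latter at 11.0 and 2.41 CPM and then 5.79 to 25.8. Fibroblast markers lay at 5.2 to 19.3 CPM, oligodendrocyte lineage markers at 28.9 to 49.4 with *Olig2* at 0, and dividing cell markers at 44.8 to 55.1. Microglial markers lay at 0.452 to 2.05 and photoreceptor markers at 0.446 to 1.66 with *Rcvrn* at 0. Most of the astrocyte sum was *Slc1a2* (20.6 to 53.6 CPM), and most of the oligodendrocyte sum was *Mbp* (25.2 to 48.5). *Pcna* (42.0 to 53.6 CPM) made up most of the dividing cell sum. *Mki67*, *Top2a*, *Ccnb1* and *Cdk1* were at most 1.0 CPM in every library. The part of these cell types in the differences of the Notch genes was not tested.

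A measure of likeness, the root mean square difference of log2 CPM centered on each gene's mean over the 6 libraries, was taken between the receptor, ligand and Hes gene of largest absolute log2 fold change with Sox11 and 13370 other genes. These are descriptions, since the 6 libraries share their group structure. *Jag1* was closest to *Dock4* (0.123), *Fam84a* (0.163) and *Robo1* (0.182). *Hes1* was closest to *Grin2d* (0.048), *Cabp1* (0.086) and *Mtfp1* (0.088), and *Notch2* to *Adam1a* (0.143), *Ccdc14* (0.242) and *Gpd1* (0.25).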

How the data were processed

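Expected counts and TPM per gene were produced by the authors with STAR and RSEM on mm10, per the labels and the study's methods. Versions, annotation and strand setting are not given in the sources used here. Effective lengths deposited beside them gave levels per kb. For the tests, expected counts were rounded, scaled by TMM (factors 0.985 to 1.04), filtered with filterByExpr and fitted with limma-voom (limma 3.58.1, edgeR 4.0.16, R 4.3.3) over the 3 groups. The study's methods name limma-voom and the thresholds used here, and the rounding, scaling, filter and joint fit were chosen for this work. Genes with a Benjamini-Hochberg FDR under 0.05 over all tested genes and a fold change above 1.2 were called. The code was tested on simulated data. DESeq2 1.42.0, edgeR's quasi-likelihood test and TPM were among the alternatives. So was the main fit with no fold change threshold, which could not lose a call and adds to the counts of kept calls. Similar transcripts were sought with BLAST 2.17.0. The named genes were all members, the called pathway genes, and proneural genes, of which 1 is not reported here. The members and lists were chosen with earlier results of these data known.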

Additional observations from a re-analysis of the deposited data

How the results depend on the processing

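With 2 libraries per group, calls near the threshold depended on the fit, while no called log2 fold change changed sign. Of 1983 values of named genes under the alternatives, 164 lost and 50 gained a call, and 0 called values reversed. Another 1729 kept their side of the threshold. These had the same sign or, where uncalled, a changed sign less than 1 standard error from the main value. The other 40 were uncalled values that changed sign by at least 1 standard error of the main fit. The 1983 include values not called in the main fit, among them all of Sox11 K91A against Sox11, which could not lose a call. The 164 lost calls therefore came from a smaller set than the 1983. Of the 10 Notch genes, 5 were called with Sox11 and 4 with Sox11 K91A. With Sox11, sample quality weights gave 1, log2(TPM + 1) and log2(TPM + 0.1) each gave 3, all higher and none lower, a filter of at least 1 count gave 3, a fit of only the 2 groups gave 2, a fold change above 2 gave 2 and leaving out both libraries that stood apart gave 3. Leaving out 1 library gave 0 to 4. With Sox11 K91A, sample quality weights gave 2, either TPM scale 1, library size without TMM 2, at least 1 count 1, only the 2 groups 2, and a fold change above 2 gave 1. Leaving out 1 library gave 0 to 2. Of the other pathway genes, 11 were called with Sox11 and 6 with Sox11 K91A. With Sox11, quality weights gave 4 and log2(TPM + 0.1) gave 7, and leaving out 1 library gave 0 to 15. With Sox11 K91A, log2(TPM + 1) gave 2 and log2(TPM + 0.1) gave 1, whereas DESeq2 gave 12, only the 2 groups 10, without both libraries that stood apart 17, and a block for those 2 libraries 10, and leaving out 1 library gave 0 to 9. Shares called over all tested genes moved too. With Sox11 they were 20.1% in the main fit, 6.22% with quality weights, 14.3% on log2(TPM + 1) and 13.4% on log2(TPM + 0.1). At least 1 count gave 12%, only the 2 groups 10.4% and a fold change above 2 gave 11.8%. With Sox11 K91A they were 10.6% in the main fit, 8.89% with quality weights, and 5.94% and 5.69% on those TPM scales. DESeq2 gave 20% there, only the 2 groups 11.3% and a block for the libraries that stood apart 18.4%. The cause was not tested. Beside fewer samples, single-library groups were assumed to vary like the others. Same-numbered libraries' deviations correlated at 0.259 (control and Sox11), -0.045 (control and Sox11 K91A) and -0.282 (both viruses), so the numbers were not taken to pair samples. A replicate block gave 3 called Notch genes with Sox11 (*Dll1*, *Jag1* and *Jag2*) and 1 with Sox11 K91A (*Dll1*), and 11 and 5 other pathway genes. A block with crossed numbers in Sox11 K91A gave 5 and 5 Notch genes and 15 and 11 other pathway genes. Of all tested genes, the replicate block called 17% with Sox11 and 8.9% with Sox11 K91A, and the crossed block 25.9% and 17.5%. The removal and blocks of the libraries that stood apart and the crossed block were chosen after seeing the data. Sox11 K91A against Sox11 gave 0 calls among these genes under each alternative, including edgeR and DESeq2. Counts under 50, as for *Notch1*, *Hes1* and *Hes5*, limit what can be detected.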
